A study of Mus musculus with 18 samples.

Results

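Colon libraries from the 2 serine-free diets were compared after the shallow libraries had been set aside. The series holds 18 RNA-sequencing libraries, and 10 of them carry a serine-free label: 5 with serine-free HFD and 5 with serine-free CD. A library was kept where its column summed to 1000000 counts or more, which left 7: serine-free HFD replicates 1 to 4 and serine-free CD replicates 2 to 4, written here as SF-HFD 1 to 4 and SF-CD 2 to 4. The rule used the column totals alone. SF-HFD 2 was the smallest library kept, at 3648783 counts, and SF-HFD 5 was the largest left out, at 727610 counts. SF-CD 1 (499774 counts) and SF-CD 5 (523601 counts) were also left out.

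HFD and CD are the labels' abbreviations, which in this field stand for a high-fat and a control diet. All 10 serine-free libraries share the labels mouse colon, cell type tumor and genotype Wild type, and all were made from poly(A)-selected RNA with a directional kit. The extraction protocol names organoids as the source of RNA, while the series' design text describes sorted live cells, so which of them fed these libraries is not settled here. Strain, age, tumor driver and the number of animals or cultures were not given in the sources used here, and nothing says that replicates came from separate animals, so the p-values measure the spread between libraries, which may be technical. The series also has libraries from diets with serine. Their columns were not used, because the row labels do not name their genes: Actb, Gapdh, Eef1a1 and Epcam stood at 0 counts in all 8, against at least 11043, 15431, 12019 and 1563 counts in the 7 libraries compared here.

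Serine and palmitoyl-CoA are the substrates of serine palmitoyltransferase, the first enzyme of ceramide synthesis, so a diet without serine limits a precursor of sphingolipids, while a high-fat diet supplies fatty acids. Ceramides are membrane lipids that also act as signals in stress and cell death. The lining of the colon is an epithelium of absorptive and goblet cells renewed from crypt base stem cells, and it rests on a stroma of fibroblasts, which lay down collagen matrix, and smooth muscle.

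The libraries had the markers of an epithelium. Epcam, an adhesion protein of epithelial cells, lay between 219 and 653 CPM (counts scaled to a common library size, normalised by the trimmed mean of M-values, TMM), and the summed level of the 15 pan-epithelial markers lay between 4023 and 9102 CPM. Cd3e, Cd3g, Cd4 and Cd8a of T cells and Ms4a1 of B cells stood at 0 in all 7 libraries. T cell receptor constant regions were counted all the same: Trbc1 was at 11.9 to 369 CPM in SF-CD and 32.1 to 297.5 CPM in SF-HFD, Trac did not exceed 2.74 CPM, and the T and NK cell list summed to 19.9 to 374 CPM in SF-CD and 34.6 to 302 CPM in SF-HFD. Ptprc, the common leukocyte antigen, did not exceed 1.29 CPM. A list of 12 endothelial markers summed to 23.8 CPM or less. Totals of the 7 libraries ran from 3648783 to 12841275 counts, so 3 counts were worth between 0.234 and 0.822 CPM. The first principal component (32.8% of the variance) placed the 3 SF-CD libraries at -80.4 to -28.9 and the 4 SF-HFD libraries at 12.6 to 61.3. Pearson's r of log2 CPM overlapped, at 0.889 to 0.953 within SF-CD, 0.892 to 0.954 within SF-HFD and 0.842 to 0.939 between the diets. SF-CD 4 stood furthest apart, with r of 0.842 to 0.891 to the other 6. Ribosomal RNA took 2.35%, 2.08% and 2.40% of counts in SF-CD 2 to 4, and 3.73%, 7.19%, 5.03% and 3.59% in SF-HFD 1 to 4. The groups did not overlap in that share (two-sided exact permutation test, p = 0.0571, the smallest that 4 against 3 libraries allow; 0.114 adjusted over 6 such measures).

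Few genes passed the edgeR test between the diets, with 4 against 3 libraries. Of 12653 genes tested with edgeR's quasi-likelihood test, 26 passed an adjusted p of 0.05, which is 0.205% of those tested. SF-HFD was higher for 16 of them (0.126%) and lower for 10 (0.079%), and the 4 SF-HFD libraries did not overlap the 3 SF-CD libraries for any of the 26. Groups that do not overlap were common across the transcriptome: 2368 of 12653 genes (18.7%) had them, 1192 higher (9.42%) and 1176 lower (9.29%) in SF-HFD. An unadjusted p under 0.05 was reached by 2092 genes, 1083 higher (8.56%) and 1009 lower (7.97%). Other tools called more genes from the same 7 libraries: DESeq2 468 (3.7%) and limma-voom with quality weights 122 (0.964%), each with all 26 among them. Of the 16 genes that rose, 2 are in the list of smooth muscle genes, 4 in that of fibroblast and matrix genes and 1 in that of matrix crosslinking enzymes; of the 10 that fell, 2 are in the goblet cell list and 4 in the antimicrobial and granule list. With 1 library left out, the test called 6 genes without SF-CD 3 (6 of them among the 26), 9 without SF-HFD 4 (9), 10 without SF-HFD 2 (9), 11 without SF-HFD 1 (9), 11 without SF-HFD 3 (10), 18 without SF-CD 2 (12) and 19 without SF-CD 4 (14). With all ribosomal RNA and mitochondrial rows removed the same 26 genes were called.

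**Figure D1:**
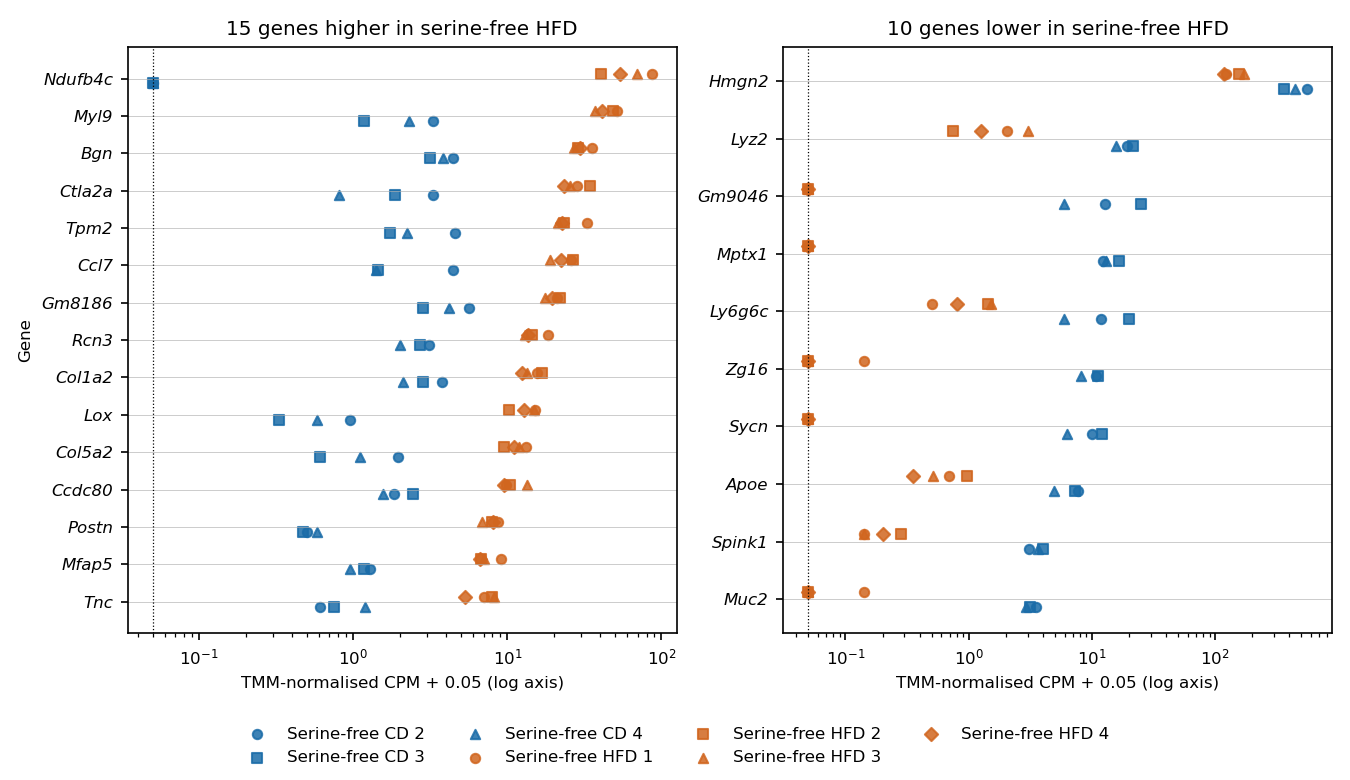
TMM-normalised CPM plus 0.05 on a log axis for 25 of the 26 genes called between the diets, 15 higher (left) and 10 lower (right) in serine-free HFD; each symbol is 1 library, blue for serine-free CD and orange for serine-free HFD, and the dotted line marks 0 CPM. The orange and blue symbols do not overlap for any gene shown, and the 4 orange symbols of most higher genes lie close together.

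Among contractile genes, 2 rose. Myl9, the regulatory myosin light chain of smooth muscle and other non-striated contractile cells, stood at 3.26, 1.12 and 2.26 CPM in SF-CD 2 to 4, and at 51.6, 48.5, 37.1 and 41.1 CPM in SF-HFD 1 to 4. Every SF-HFD library was therefore above every SF-CD library, and the log2 fold change was 4.31 ± 0.39 (standard error; edgeR adjusted p = 0.00245). Tpm2, a tropomyosin that lies along actin filaments, was at 4.49, 1.68 and 2.19 CPM in SF-CD and at 32.6, 23.3, 21.3 and 22.7 CPM in SF-HFD; it rose by 3.16 ± 0.41 on the log2 scale (edgeR adjusted p = 0.0210). Acta2, the actin isoform of smooth muscle, had 11.8, 1.68 and 2.57 CPM in SF-CD and 105, 89.1, 80.9 and 88.5 CPM in SF-HFD. Its groups did not overlap either (log2 fold change 4.08 ± 0.65). The level of SF-CD 2 was far above the other pair, and Acta2 did not pass (edgeR adjusted p = 0.0701). Cnn1, a calponin bound to smooth muscle actin, was at 1.12 CPM in SF-CD 2 and 0 in SF-CD 3 and 4, against 7.38 to 9.25 CPM in SF-HFD (edgeR adjusted p = 0.155).

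Promoters of the contractile pair Myl9 and Acta2 are shown because smooth muscle genes are known for CArG boxes, the sites of serum response factor. Each runs from 250 bases before to 50 after the gene's start, from RefSeq on GRCm38.p6, at chr2:156775214-156775513 on the plus strand for Myl9 and chr19:34255324-34255623 on the minus strand for Acta2, and capitals mark a perfect CArG box on either strand.
Myl9: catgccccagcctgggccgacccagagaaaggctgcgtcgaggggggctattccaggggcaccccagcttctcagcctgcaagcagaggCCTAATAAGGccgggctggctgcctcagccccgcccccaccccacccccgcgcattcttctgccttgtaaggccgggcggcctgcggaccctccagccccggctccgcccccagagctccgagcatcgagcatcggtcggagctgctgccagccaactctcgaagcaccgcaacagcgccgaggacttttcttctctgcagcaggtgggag
Acta2: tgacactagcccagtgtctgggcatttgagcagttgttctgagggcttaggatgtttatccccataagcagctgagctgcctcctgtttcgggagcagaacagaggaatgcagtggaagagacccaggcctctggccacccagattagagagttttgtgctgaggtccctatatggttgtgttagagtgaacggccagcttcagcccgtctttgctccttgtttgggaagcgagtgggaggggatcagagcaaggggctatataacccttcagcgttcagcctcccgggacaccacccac
The match in Myl9 starts 161 bases before the gene's start. Imperfect boxes were not searched, so the absence of capitals in Acta2 does not show that it lacks a site of the factor. A perfect CArG box was in 535 of 32851 promoters of that length (1.63%), in 1 of the 8 genes called higher that had a promoter in the table (Myl9), in 0 of 7 called lower, and in 1 of 13 of the smooth muscle list (Myl9). Other motifs were searched on both strands: TGANTCA was in 7.81% of all promoters, GGAATG in 14.7% and TATAAA in 13.6%. Among the 8 higher genes, TGANTCA was in 1 (Ctla2a), GGAATG in 1 (Rcn3) and TATAAA in 3 (Ctla2a, Postn and Tnc). Among the 7 lower genes, TGANTCA was in 1 (Muc2), GGAATG in 2 (Apoe and Sycn) and TATAAA in 4 (Apoe, Ly6g6c, Mptx1 and Muc2). These matches describe the letters of a short window and no more.

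As a group, the smooth muscle and pericyte list had 12 of its 17 members tested. SF-HFD was higher in 2 by the test (Myl9 and Tpm2), as in 0.126% of all genes tested, and lower in 0. Of the 12 fold changes 11 were positive, and 9 of 12 had SF-HFD wholly above SF-CD, as 9.42% of all genes tested did. DESeq2 called 7 and limma-voom 5, all higher. The median log2 fold change of the tested members was 3.06, against 0.0425 over all genes tested. Across the alternative fits it was 2.43 to 4.16. A low member such as Lmod1 (means of 0.112 CPM in SF-CD and 1.81 CPM in SF-HFD) could pass the filter through SF-HFD alone. The summed level of the 17 members was 16.7 to 62.4 CPM in SF-CD and 253 to 285 CPM in SF-HFD, so the 4 SF-HFD libraries stood within a narrow band. In the same 4 libraries the summed absorptive colonocyte markers ranged from 1547 to 8955 CPM. Des, the desmin of mature muscle, was at 0 in all 3 SF-CD libraries and between 0.231 and 0.380 CPM in SF-HFD. Pdgfra, a receptor of fibroblasts, did not exceed 0.462 CPM in any of the 7. In bulk RNA, a change in the number of contractile or matrix-forming cells and a change in RNA per cell cannot be told apart.

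Several genes of extracellular matrix rose as well. Bgn, the small proteoglycan biglycan, had 4.38, 3.08 and 3.77 CPM in SF-CD and 35.2, 28.9, 27.1 and 29.6 CPM in SF-HFD. Both groups were tight, and the log2 fold change was 3.002 ± 0.28 (edgeR adjusted p = 0.00299). Lox, the enzyme that crosslinks collagen and elastin, rose with a log2 fold change of 4.49 ± 0.47, and Postn, a matrix protein of fibroblasts, rose by 4.02 ± 0.43 (edgeR adjusted p = 0.00532 and 0.00559).

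Of the fibrillar collagen chains, Col1a2 and Col5a2 passed. Col1a2, a chain of type I collagen, was at 3.71, 2.80 and 2.04 CPM in SF-CD and 15.5, 16.6, 13.4 and 12.3 CPM in SF-HFD (log2 fold change 2.34 ± 0.35, edgeR adjusted p = 0.0323). Its partner chain Col1a1 was at 1.21 to 4.72 CPM in SF-CD and 16.3 to 25.5 CPM in SF-HFD, a log2 fold change of 3.04 ± 0.52 that did not pass (edgeR adjusted p = 0.0705). Col5a2, a chain of type V collagen, passed with 3.25 ± 0.47 (edgeR adjusted p = 0.0297). Col3a1, the chain of type III collagen, was at 3.55 to 4.34 CPM in SF-CD and 7.90 to 11.3 CPM in SF-HFD (1.24 ± 0.33, edgeR adjusted p = 0.161); the fit of all 10 libraries gave it 0.0053. Tnc, the matrix glycoprotein tenascin C, had 0.562, 0.700 and 1.13 CPM in SF-CD and 7.05, 7.85, 8.12 and 5.24 CPM in SF-HFD. Again no SF-HFD library fell within the SF-CD range (log2 fold change 3.10 ± 0.46, edgeR adjusted p = 0.0323). Rcn3, a calcium-binding protein of the secretory pathway, rose by 2.53 ± 0.34, Ccdc80, a matrix-associated protein, by 2.51 ± 0.37, and Mfap5, a microfibril protein, by 2.75 ± 0.41 on the log2 scale (edgeR adjusted p = 0.0240, 0.0308 and 0.0308). Sparc, a collagen-binding protein, was at 6.72 to 33.1 CPM in SF-CD and 49.3 to 65.8 CPM in SF-HFD without passing (edgeR adjusted p = 0.164).

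The list of fibroblast and matrix genes had 15 of 22 members tested. Of these, 4 rose (Postn, Mfap5, Col5a2 and Col1a2), where 0.126% of all genes tested did, 0 fell and all 15 fold changes were positive. SF-HFD was wholly above SF-CD in 11 (9.42% over all genes tested). The median log2 fold change was 2.35, and 1.49 without the filter on low counts. A low member such as Thy1 (means of 0.109 CPM in SF-CD and 1.20 CPM in SF-HFD) could pass the filter through SF-HFD alone. Untested members went both ways: Col6a1 had means of 0.824 and 0.365 CPM, and Mfap4 0.590 and 0.654 CPM. DESeq2 called 10 and limma-voom 7, all higher. Vim, the intermediate filament of mesenchymal cells, was the member with the smallest difference. It was at 86.6 CPM in SF-HFD 3 and 69.3 CPM in SF-CD 4, against 5.28 to 17.1 CPM in the other 5 libraries, and its log2 fold change of 0.0029 took the opposite sign, at -0.01, under 3 other scalings. Dcn, the proteoglycan decorin, was at 2.52 to 9.10 CPM in SF-CD and 21.9 to 26.9 CPM in SF-HFD (edgeR adjusted p = 0.107). Of 10 enzymes of matrix crosslinking tested, 1 rose (Lox), where 0.126% of all genes tested did. Here 8 fold changes were positive and the median was 0.51. Loxl1, a relative of Lox, was at 0.227 to 0.449 CPM in SF-CD and 1.75 to 2.65 CPM in SF-HFD (edgeR adjusted p = 0.155). Another relative, Loxl2, was lower in SF-HFD at 58.4 to 115 CPM against 119 to 160 CPM, with edgeR adjusted p = 0.268.

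Of 17 TGF-beta ligands and targets tested, 12 had positive fold changes and the median was 0.30. SF-HFD was wholly above SF-CD in 5 and wholly below in 0 (9.42% and 9.29% over all genes tested). Pmepa1, a feedback inhibitor of TGF-beta signalling, was at 13.4 to 33.3 CPM in SF-CD and 35.1 to 103 CPM in SF-HFD, and Thbs1, a matrix protein that activates latent TGF-beta, at 26.7 to 47.0 against 49.6 to 123 CPM; neither passed (edgeR adjusted p = 0.161 for both). Ltbp2, a binding protein of elastic fibres, was at 0.420 to 1.12 CPM in SF-CD and 3.80 to 5.68 CPM in SF-HFD (edgeR adjusted p = 0.133). Others had negative log2 fold changes without passing: Bambi, a decoy receptor, -0.89 ± 0.42, Tgfb2, a ligand, -1.35 ± 0.75, and Tgfbi, a matrix protein induced by TGF-beta, -1.58 ± 1.32 (edgeR adjusted p = 0.321, 0.386 and 0.562). Of 13 YAP and TAZ targets 0 passed, and the median log2 fold change was 0.42. Here SF-HFD was wholly above SF-CD in 4 and wholly below in 0 (9.42% and 9.29% over all genes tested). An unadjusted edgeR p under 0.05 was reached by 3, all higher (8.56% over all genes tested). DESeq2 called 2 and limma-voom 0.

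The remaining genes that rose are of mixed kinds. Ccl7, a chemokine that attracts monocytes, was at 4.38, 1.40 and 1.36 CPM in SF-CD and 25.7, 26.5, 18.8 and 22.1 CPM in SF-HFD (log2 fold change 3.29 ± 0.47, edgeR adjusted p = 0.0297). Ctla2a, a gene resembling a cathepsin propeptide, was at 0.755 to 3.26 CPM in SF-CD and 23.3 to 34.2 CPM in SF-HFD (3.85 ± 0.48, edgeR adjusted p = 0.0177). The sequence of Ctla2a is partly shared with relatives, with 37.3% of the 31-base words of its transcripts found in other genes. Counts summed over Ctla2a, Ctla2b and Gm49391 gave 2.05 ± 1.27 CPM in SF-CD (SD, n = 3) and 28.3 ± 4.56 CPM in SF-HFD (SD, n = 4). Ctla2a alone had means of 1.94 and 27.7 CPM, so nearly all of the summed level was assigned to that copy.

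**Figure D2:**
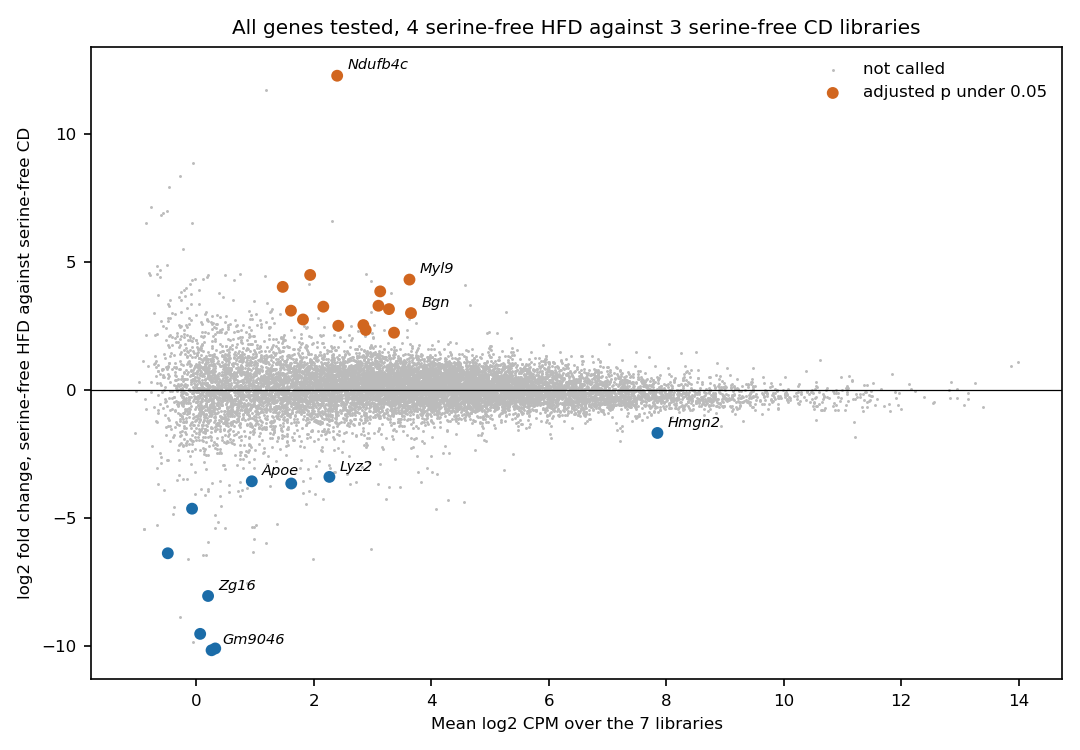
Log2 fold change of SF-HFD against SF-CD (vertical) against mean log2 CPM over the 7 libraries (horizontal) for the genes tested, 1 called gene left out; large orange points are 15 of the 16 genes called higher, large blue points the 10 called lower. Hmgn2 lies furthest right of the called genes, on a scale that is not corrected for gene length.

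The genes that fell were led by secreted proteins. Zg16, a lectin of goblet cell granules that binds bacteria, was at 10.7, 11.2 and 8.15 CPM in SF-CD and at 0.0915, 0, 0 and 0 CPM in SF-HFD. In counts that is 283 against 1, a ratio of 379 (exact 95% interval 67.5 to 15030, counting error only; edgeR adjusted p = 0.00245). Muc2, the gel-forming mucin of the colon, had 3.48, 3.08 and 2.87 CPM against 0.0915, 0, 0 and 0 CPM, or 91 counts against 1 (ratio 122, interval 21.3 to 4869; edgeR adjusted p = 0.0260). Mptx1, a pentraxin of the intestinal mucosa, was at 12.1, 16.4 and 13.1 CPM in SF-CD and had no count in any SF-HFD library, which puts it at least 178-fold lower at a limit of 3 counts over the group. Sycn, the secretory granule protein syncollin, likewise had 255 counts in SF-CD and 0 in SF-HFD, at least 114-fold lower (edgeR adjusted p = 0.00522 for Mptx1 and 0.0160 for Sycn).

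Spink1, a secreted trypsin inhibitor, stood at 3.03, 3.92 and 3.62 CPM in SF-CD and at 0.0915, 0.231, 0.0923 and 0.152 CPM in SF-HFD (log2 fold change -4.63 ± 0.62, edgeR adjusted p = 0.0240). Lyz2, a lysozyme of myeloid cells, is in both the antimicrobial and the macrophage list. It was at 19.3, 21.3 and 15.6 CPM in SF-CD and at 2.01, 0.692, 2.95 and 1.22 CPM in SF-HFD. The groups did not overlap, and the log2 fold change was -3.39 ± 0.45 (edgeR adjusted p = 0.0240). Lyz1 shares 32.8% of the 31-base words of Lyz2; the sum of both was 18.7 ± 2.91 CPM in SF-CD and 2.22 ± 1.18 CPM in SF-HFD (SD). Apoe, the lipid-transport apolipoprotein made by macrophages among other cells, had 7.64, 7.28 and 4.91 CPM in SF-CD and 0.641, 0.923, 0.462 and 0.304 CPM in SF-HFD (-3.56 ± 0.52, edgeR adjusted p = 0.0308); it was named after its values had been seen. Ly6g6c, a surface protein of the Ly6 family, was at 11.8, 20.02 and 5.89 CPM against 0.458, 1.38, 1.48 and 0.760 CPM (-3.65 ± 0.56, edgeR adjusted p = 0.0391).

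Not all products of the same cells followed. Of 14 goblet cell genes tested, 2 fell (Muc2 and Zg16), where 0.079% of all genes tested did, and 0 rose. Among the 14, 4 fold changes were positive, and the median was -0.66. SF-HFD was wholly below SF-CD in 2 and wholly above in 0 (9.29% and 9.42% over all genes tested). An unadjusted edgeR p under 0.05 was reached by 3, with 1 higher and 2 lower (8.56% and 7.97% over all genes tested). Tff3, a trefoil peptide secreted with mucin, was at 9.38 to 10.9 CPM in SF-CD, at 10.98 and 12.9 CPM in SF-HFD 1 and 2, and at 0.185 and 0.456 CPM in SF-HFD 3 and 4. Spink4, a goblet cell peptide, was at 18.3 to 23.5 CPM in SF-CD and reached 41.3 CPM in SF-HFD 2 but 0.738 and 0.760 CPM in SF-HFD 3 and 4. The SF-HFD libraries thus disagreed among themselves for these genes, and the groups overlapped. Of 9 antimicrobial and granule genes tested, 4 fell (Mptx1, Sycn, Spink1 and Lyz2), where 0.079% of all genes tested did. In this list 0 rose, and the median was -1.71. SF-HFD was wholly below SF-CD in 5 and wholly above in 0 (9.29% and 9.42% over all genes tested). An unadjusted edgeR p under 0.05 was reached by 7, with 1 higher and 6 lower (8.56% and 7.97% over all genes tested). Without the filter on low counts the list had 16 members and its median was 0.31. Mmp7, the metalloproteinase that processes Paneth cell defensins, was higher in SF-HFD 3 and 4 (157 and 239 CPM) than in SF-CD (29.7 to 49.1 CPM), with SF-HFD 1 at 27.4 CPM. Reg4, a lectin of deep crypt secretory cells, was at 89.5 CPM in SF-HFD 2 and at 1.85 to 19.8 CPM in the other 6 libraries.

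Macrophage markers were sparse in both diets. Of 17, 6 were tested and 1 fell (Lyz2), where 0.079% of all genes tested did. SF-HFD was wholly below SF-CD in 2 of the 6 and wholly above in 0 (9.29% and 9.42% over all genes tested). The summed level of the list was 54.1 to 125 CPM in SF-CD and 69.7 to 108 CPM in SF-HFD. Cd163 was at 0 in all 7, and Adgre1, Csf1r, Aif1 and the C1q chains were too low to be tested. Fcer1g, the signalling chain of Fc receptors, had 45 counts in SF-CD and 1 in SF-HFD, a ratio of 60.3 (exact 95% interval 10.3 to 2434), and did not pass (edgeR adjusted p = 0.0845). The part of macrophage RNA in the Lyz2 and Apoe values was not tested.

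Hmgn2 had the most counts of the genes that fell. This nucleosome-binding protein of proliferating cells was at 556, 360 and 444 CPM in SF-CD 2 to 4 and at 123, 156, 171 and 118 CPM in SF-HFD 1 to 4. The groups did not overlap, and the log2 fold change was -1.67 ± 0.23 (edgeR adjusted p = 0.0260). Its pseudogene Gm10282 shares most of the words that Hmgn2 has in common with any gene. Adding Gm10282 left the level of Hmgn2 unchanged, at 453 ± 98.0 CPM in SF-CD and 142 ± 25.4 CPM in SF-HFD (SD). With the 3 shallow libraries added, the log2 fold change was -0.92 and the call was lost (edgeR adjusted p = 0.469).

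For 3 called models the table cannot say which copy was expressed. Ndufb4c, a processed pseudogene of the complex I subunit gene Ndufb4 at chr15:73809507-73809896 (minus strand), had 0 counts in all SF-CD libraries and 86.2, 40.2, 69.3 and 53.9 CPM in SF-HFD, at least 641-fold higher. All 360 of its 31-base words occur in Ndufb4. Ndufb4 itself was at 589 to 617 CPM in SF-CD and at 518, 252, 463 and 336 CPM in SF-HFD, and the sum over the family was 601 ± 14.6 CPM in SF-CD and 455 ± 140 CPM in SF-HFD (SD; two-sided exact permutation test, p = 0.171, 0.206 adjusted over 6 families). The pseudogene's rise therefore came with no higher family total. Gm8186, whose 201 words all occur in the small ribonucleoprotein gene Snrpg, rose from 2.80 to 5.62 CPM in SF-CD to 17.5 to 21.9 CPM in SF-HFD (log2 fold change 2.24 ± 0.33, edgeR adjusted p = 0.0308), while the family sum was lower, at 408 ± 23.1 against 600 ± 124 CPM (two-sided exact permutation test, p = 0.0571). Gm9046 had 371 counts in SF-CD and 0 in SF-HFD, at least 166-fold lower, but all of its words occur in other genes, such as Gm9048. A sum over 11 genes that share its words included Cdc5l. That sum was 77.0 ± 25.0 CPM in SF-HFD and overlapped the 101 ± 6.52 CPM of SF-CD (two-sided exact permutation test, p = 0.229). Gm9046 itself had a mean of 14.6 CPM in SF-CD, and the part of Cdc5l in the sum was not tested. The calls of all 3 are uncertain as statements about a gene.

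**Figure D3:**
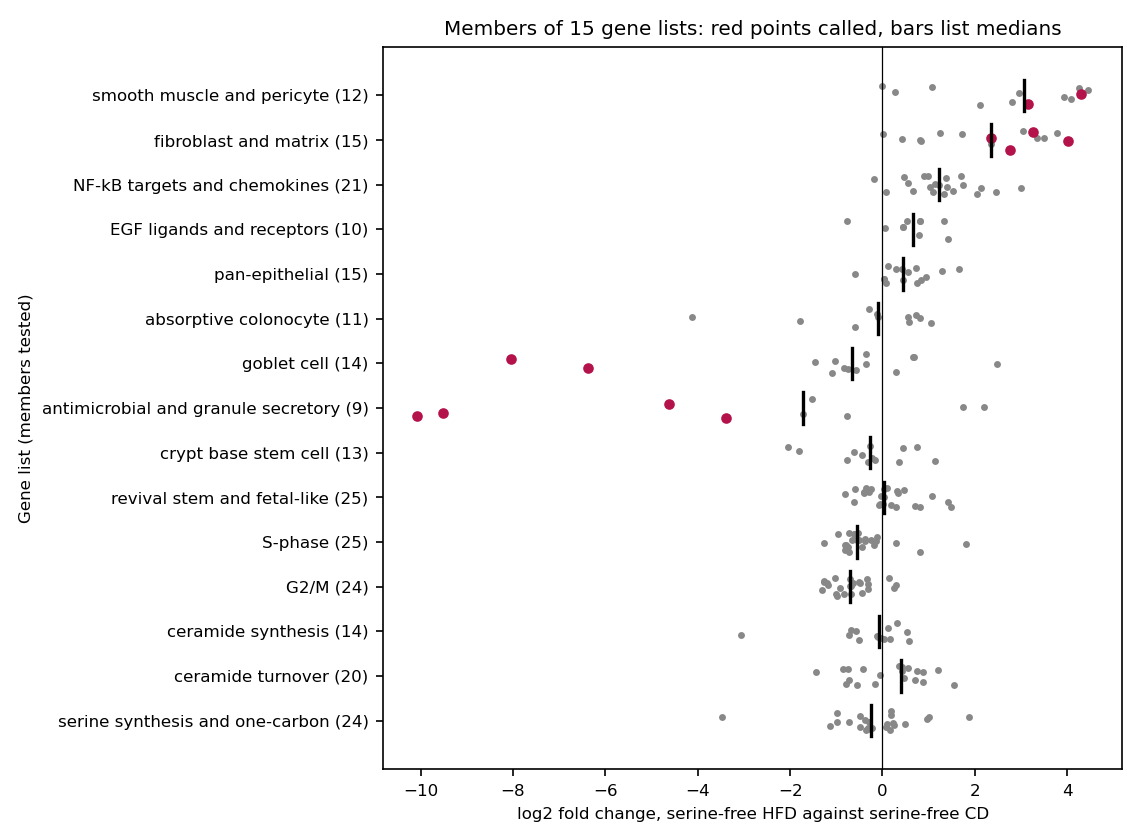
Log2 fold change of each tested member (points) in 15 gene lists, with the number of members tested in parentheses; red points are called genes and black bars list medians. The smooth muscle and fibroblast lists have medians of 3.06 and 2.35, while the lists for ceramide synthesis and revival stem genes centre near 0.

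Mitotic genes were mostly lower in SF-HFD without any passing the test. Of 24 G2/M genes, 0 were called, 3 fold changes were positive, 11 had SF-HFD wholly below SF-CD (9.29% over all genes tested) and 0 wholly above, and the median was -0.70. An unadjusted edgeR p under 0.05 was reached by 11, all lower (7.97% over all genes tested); DESeq2 called 8 and limma-voom 4, all lower. Nusap1, a spindle protein, was at 238, 232 and 243 CPM in SF-CD and 118, 122, 93.6 and 60.2 CPM in SF-HFD (edgeR adjusted p = 0.122). Kif20a, a kinesin of cytokinesis, was at 72.0 to 84.5 CPM in SF-CD and 24.3 to 39.7 CPM in SF-HFD, and Cdk1, the mitotic kinase, at 221 to 251 against 106 to 137 CPM (edgeR adjusted p = 0.107 for both). Aurka, a spindle kinase, was at 85.3 to 101 against 31.9 to 52.4 CPM, and Birc5, a subunit of the chromosomal passenger complex, at 274 to 379 against 121 to 206 CPM. The proliferation marker Mki67 did not follow: it was at 73.6 to 105 CPM in SF-CD, 38.3 to 70.2 CPM in 3 of the SF-HFD libraries and 264 CPM in SF-HFD 2. Top2a, a topoisomerase of dividing cells, was also highest in SF-HFD 2, at 643 CPM.

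The S-phase list had 25 members tested, 0 called, 3 positive and a median of -0.56. In SF-HFD 5 were wholly lower and 0 wholly higher (9.29% and 9.42% over all genes tested). An unadjusted edgeR p under 0.05 was reached by 8, all lower (7.97% over all genes tested), and DESeq2 and limma-voom each called 1. Tyms, the enzyme that makes thymidylate, was at 142 to 168 CPM in SF-CD and 73.4 to 133 CPM in SF-HFD (edgeR adjusted p = 0.227). Rrm2, a subunit of ribonucleotide reductase, was at 205, 204 and 98.1 CPM in SF-CD and 76.4 to 112 CPM in SF-HFD. With all 10 libraries the median of the list was -0.08 and 9 of 25 members had the opposite sign. The log2 fold change of Rrm2 was -0.82 with 7 libraries and 0.24 with all 10. Pcna, the sliding clamp of replication, changed sign in the same way, from -0.37 to 0.04.

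Genes of NF-kB signalling showed the opposite lean. Of 21 tested, 0 were called, 20 had positive fold changes and the median was 1.22. In SF-HFD 6 were wholly higher and 0 wholly lower (9.42% and 9.29% over all genes tested). An unadjusted edgeR p under 0.05 was reached by 10, all higher (8.56% over all genes tested). DESeq2 called 3 and limma-voom 1. Csf1, a growth factor of macrophages, was at 0.562, 0.560 and 1.36 CPM in SF-CD and at 6.96, 7.85, 6.83 and 6.16 CPM in SF-HFD; it missed the threshold with 7 libraries (edgeR adjusted p = 0.0526) and was called with 10. Cxcl16, a transmembrane chemokine, was at 18.3 to 32.1 CPM in SF-CD and 40.1 to 95.9 CPM in SF-HFD, and Tnfaip3, an inhibitor of NF-kB, at 2.36 to 4.62 against 7.96 to 16.04 CPM (edgeR adjusted p = 0.155 for both). Nfkb2, a subunit of the factor, was at 5.88 to 9.06 against 10.1 to 21.6 CPM. Nfkbia, the inhibitor IkB-alpha, was at 33.1 to 61.9 against 72.1 to 136 CPM, a log2 fold change of 1.04 that became -1.02 with the 3 shallow libraries included. SF-HFD 4 had the highest summed level of the list, 863 CPM, and the lowest SF-HFD library, at 348 CPM, was above the highest SF-CD library, at 327 CPM.

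Enzymes that make or consume ceramide showed no called gene. Of 14 genes of ceramide synthesis, 6 had positive fold changes and the median was -0.07. Among them 2 reached an unadjusted edgeR p under 0.05, both lower (7.97% over all genes tested), DESeq2 called 1 and limma-voom 0. Sptlc1, a subunit of serine palmitoyltransferase, was at 36.5, 28.7 and 35.6 CPM in SF-CD and 41.4, 21.2, 40.2 and 33.7 CPM in SF-HFD, and the groups overlapped (log2 fold change 0.03 ± 0.28). Sptlc2, the catalytic partner, was at 26.3 to 35.9 CPM in SF-CD and 34.8 to 55.4 CPM in SF-HFD, which is 0.52 ± 0.25 higher on the log2 scale (edgeR adjusted p = 0.325). Ormdl2, a regulator that restrains the same enzyme, was at 240 to 269 CPM in SF-CD and 85.2 to 194 CPM in SF-HFD without passing (edgeR adjusted p = 0.275). Of 20 genes of ceramide turnover, 3 were wholly higher and 3 wholly lower in SF-HFD (9.42% and 9.29% over all genes tested). An unadjusted edgeR p under 0.05 was reached by 4, with 1 higher and 3 lower (8.56% and 7.97% over all genes tested). DESeq2 and limma-voom called 0. Spns2, an exporter of sphingosine 1-phosphate, was higher at 39.5 to 67.0 against 9.89 to 39.2 CPM, and Acer2, a ceramidase of the Golgi, lower at 9.46 to 16.3 against 21.98 to 22.9 CPM (edgeR adjusted p = 0.232 and 0.237).

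Serine synthesis and one-carbon metabolism likewise had 0 of 24 genes called, with a median of -0.26. In SF-HFD 1 was wholly higher and 4 wholly lower (9.42% and 9.29% over all genes tested). Over the 23 members tested in both fits the median was -0.22 with 7 libraries and 0.06 with all 10, and 7 of them turned sign. Of the 24, 5 reached an unadjusted edgeR p under 0.05, with 1 higher and 4 lower (8.56% and 7.97% over all genes tested). DESeq2 called 1 and limma-voom 0. Phgdh, the first enzyme of serine synthesis, was at 154 to 209 CPM in SF-CD and 82.8 to 212 CPM in SF-HFD. Psat1, the second, was at 217.5, 180 and 202 CPM in SF-CD and 135 to 156 CPM in SF-HFD, so the groups did not overlap, but the log2 fold change of -0.49 ± 0.19 did not pass (edgeR adjusted p = 0.251) and was 0.04 with all 10 libraries. Mat2a, which makes S-adenosylmethionine, was at 106 to 231 CPM in SF-CD and 249 to 463 CPM in SF-HFD (edgeR adjusted p = 0.221). Both diets lacked serine, so the comparison does not bear on serine itself.

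No stem cell gene of either list passed the test. The revival stem and fetal-like list had 25 tested, 0 called, 14 positive and a median of 0.02. An unadjusted edgeR p under 0.05 was reached by 2, with 1 higher and 1 lower (8.56% and 7.97% over all genes tested). DESeq2 and limma-voom called 0. Clu, the marker of revival stem cells, was at 56.1, 59.5 and 114 CPM in SF-CD and 12.5, 77.8, 55.1 and 56.5 CPM in SF-HFD. Ly6a, a surface protein of regenerating epithelium, was at 1167 to 2967 CPM in SF-CD and 1293 to 2293 CPM in SF-HFD, a log2 fold change of 0.0040 ± 0.33 that was -0.01 under 3 other scalings. Anxa1, an annexin of repairing epithelium, was at 3949 to 6236 CPM in SF-CD and 1657 to 3775 CPM in SF-HFD, wholly lower, with edgeR adjusted p = 0.239. Crypt base genes had 0 of 13 called (0 by DESeq2 or limma-voom) and a median of -0.27. At an unadjusted edgeR p under 0.05 there was 1, higher in SF-HFD (8.56% over all genes tested). Lgr5, the R-spondin receptor that marks these cells, reached 64.4 CPM in SF-CD 4 and 4.52 to 15.7 CPM in the other 6, and Ascl2, a transcription factor of the same cells, was at 1.13 CPM in SF-CD 4 and 9.65 to 41.0 CPM in the others. Among absorptive genes, 0 of 11 were called (1 by DESeq2 and 2 by limma-voom). At an unadjusted edgeR p under 0.05 there were 2, with 1 higher and 1 lower (8.56% and 7.97% over all genes tested). Car1, a carbonic anhydrase of colonocytes, ranged from 30.4 CPM in SF-CD 4 to 3912 CPM in SF-HFD 1.

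Of the 15 pan-epithelial markers 0 passed, and 14 had positive fold changes with a median of 0.45. An unadjusted edgeR p under 0.05 was reached by 5, with 4 higher and 1 lower (8.56% and 7.97% over all genes tested). DESeq2 called 1 and limma-voom 0. SF-HFD was wholly above SF-CD in 4 and wholly below in 1 (9.42% and 9.29% over all genes tested). The summed level was 4023 to 7464 CPM in SF-CD and 6156 to 9102 CPM in SF-HFD. Epcam was at 232, 219 and 224 CPM in SF-CD and at 396, 653, 307 and 383 CPM in SF-HFD (edgeR adjusted p = 0.171). Krt8, a keratin of simple epithelia, was at 487 to 559 against 661 to 1287 CPM, and Cdh1, the epithelial cadherin, at 109 to 135 against 124 to 264 CPM. Elf3, an epithelial transcription factor, was at 195 to 251 CPM in SF-CD and 92.8 to 187 CPM in SF-HFD (edgeR adjusted p = 0.288).

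SF-CD 4 differed most from the libraries of its own diet. Among 7217 genes with a mean of at least 10 CPM, it stood at least 4-fold above both other SF-CD libraries in 78 and at least 4-fold below both in 164 (on CPM + 1); the counts for SF-CD 2 and SF-CD 3 were 12 and 3, and 12 and 0. In SF-HFD the same counts, against 3 other libraries, were 11 and 16 for replicate 1, 19 and 20 for replicate 2, 10 and 1 for replicate 3, and 9 and 5 for replicate 4. The genes were picked by these values, so no test applies to them. Genes highest in SF-CD 4 included Igf1, insulin-like growth factor 1 (658 CPM, against 11.8 and 14.0 in SF-CD 2 and 3), Sox2, a transcription factor of foregut and neural progenitors (150 against 3.03 and 3.64 CPM), Ptn, a heparin-binding growth factor (891.5 against 27.0 and 22.96 CPM), and Hdc, which makes histamine (102 against 1.24 and 1.82 CPM).

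Several intestinal genes were lowest in SF-CD 4. Cdh17, the intestinal cadherin, was at 5.51 CPM there and at 200.2 and 313 CPM in the other pair, Lgals4, an intestinal galectin, at 46.0 CPM against 2467 and 1616 CPM, and Isx, an intestinal homeobox factor, at 0.302 CPM against 61.0 and 65.4 CPM. Krt20, a keratin of differentiated cells, went the other way, at 59.0 CPM against 15.7 and 17.6 CPM. Across the 15 genes furthest above, SF-CD 2, SF-CD 3 and SF-HFD 3 carried a median of 2.38%, 2.43% and 2.996% of the SF-CD 4 level, and SF-HFD 1, 2 and 4 carried 0.958%, 0.189% and 0.312%. Igf1 shows it: SF-HFD 3 was at 8.77 CPM and the other SF-HFD libraries at 0.915 to 1.22 CPM. Of the SF-CD libraries kept, SF-CD 4 held most of the summed level of these genes. The diet difference did not pass with 7 libraries: Igf1 had a log2 fold change of -6.21 ± 1.67, Itga4, an integrin chain, -5.93 ± 1.46, and Hdc -9.85 ± 2.17 (edgeR adjusted p = 0.169, 0.161 and 0.155). The shallow SF-CD 5 was also high, at 545 CPM for Igf1, 56.5 CPM for Itga4 and 46.7 CPM for Hdc. SF-CD 1 was at 40.6, 2.25 and 0 CPM. With all 10 libraries Igf1, Itga4 and Hdc passed (edgeR adjusted p = 0.0469, 0.0314 and 0.0389). Without SF-CD 4, 19 genes were called, 14 of them among the 26.

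**Figure D4:**
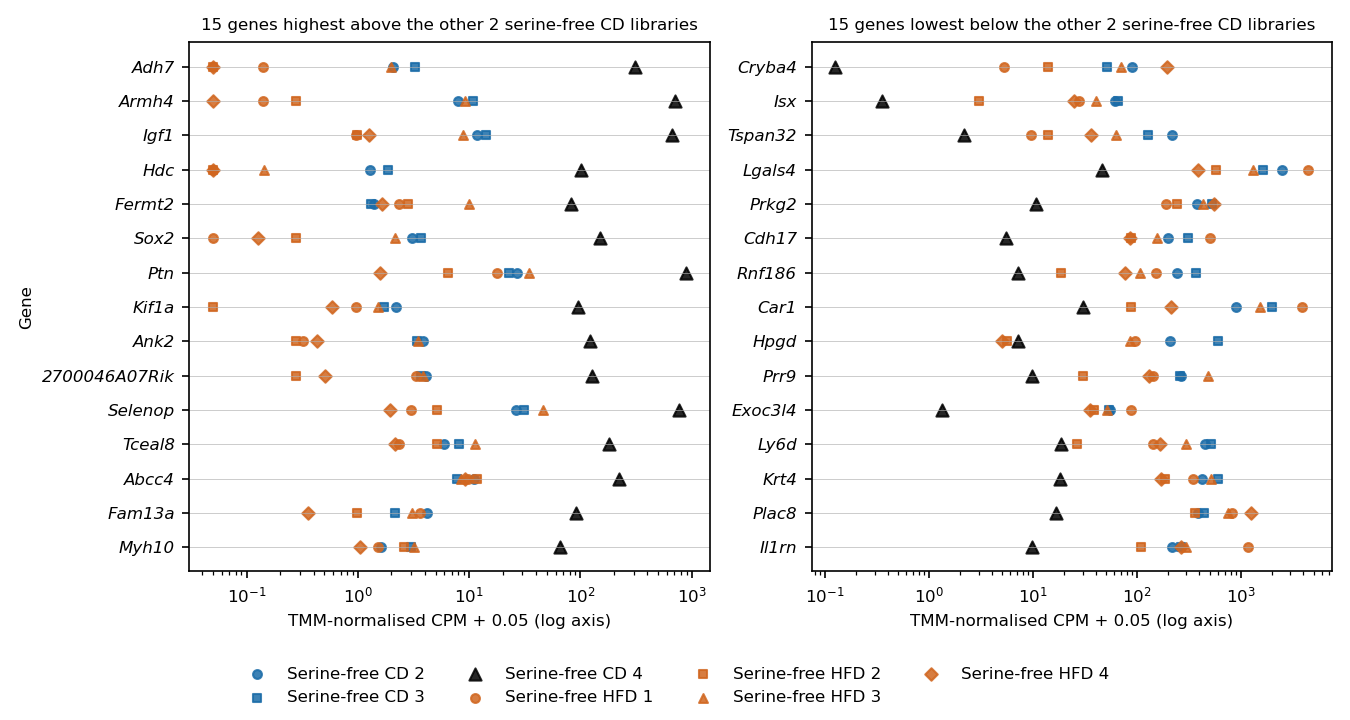
TMM-normalised CPM plus 0.05 on a log axis in each of the 7 libraries for the 15 genes that put SF-CD 4 (black triangles) furthest above (left) and furthest below (right) the other 2 serine-free CD libraries (blue); serine-free HFD libraries are orange. In the left panel SF-CD 2, SF-CD 3 and SF-HFD 3 lie at a few percent of the black triangle for most genes.

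Single SF-HFD libraries also departed from their group. Ido1, the enzyme that opens tryptophan's ring on the kynurenine path, was at 271 CPM in SF-HFD 4, at 4.38 to 22.98 CPM in SF-HFD 1 to 3, and at 2.36, 0.140 and 0 CPM in SF-CD 2 to 4. Its 4 SF-HFD libraries were also wholly above SF-CD; it did not pass with 7 libraries (log2 fold change 6.59 ± 1.95, edgeR adjusted p = 0.191) and did with 10 (0.0477). SF-HFD 2, the smallest library, was above its group for the transcription factors Klf4 (241 against 42.9 to 56.6 CPM) and Atf3 (50.1 against 5.17 to 6.32 CPM) and for Cdt1, a replication licensing factor (78.7 against 8.49 to 11.4 CPM).

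Adding the 3 shallow libraries changed which genes passed. The fit of all 10 serine-free libraries tested 11780 genes and called 38 (0.323%), and the 2 fits share 7 libraries, so they are not independent. They had 19 calls in common, which is 73.1% of the 26 and 50% of the 38. The 7 genes called with 7 libraries and not with 10 were Tpm2, Lyz2, Hmgn2, Gm8186, Tnc, Col1a2 and Gm9046, the last of which was not tested with 10. All 19 genes called with 10 libraries and not with 7 had the same sign in both fits. They included the contractile genes Acta2 and Actg2, the adaptor Tgfb1i1, Csf1, the repair enzyme gene Mgmt and the hair keratin-associated gene Krtap3-1. Igf1, Itga4 and Hdc, which were high in SF-CD 4, were also among them. Mgmt had 60 counts in SF-HFD and 0 in SF-CD, at least 14.9-fold higher.

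Directions also turned when the shallow libraries were added. Of 11771 genes tested in both fits, 3139 (26.7%) had opposite signs. In the smooth muscle list 0 of 10 did so, and in the goblet and antimicrobial lists 0 of 14 and 0 of 9. In the respiratory complex I list 21 of 36 did, and its median moved from -0.24 to 0.10; in the cholesterol synthesis list it was 12 of 22, with medians of -0.20 and -0.14. Ccnd1, the G1 cyclin, was at 113 to 135 CPM in SF-CD and 195 to 270.5 CPM in SF-HFD, a log2 fold change of 0.92 with 7 libraries and of -0.64 with 10. Itga6, a laminin-binding integrin chain, went from 0.76 to -0.98. Malat1, a nuclear non-coding RNA, took 0.410% to 1.18% of counts in the 7 libraries and 12.1% in SF-CD 1, where ribosomal RNA took 21.99%; its log2 fold change went from 0.33 to -2.04.

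**Figure D5:**
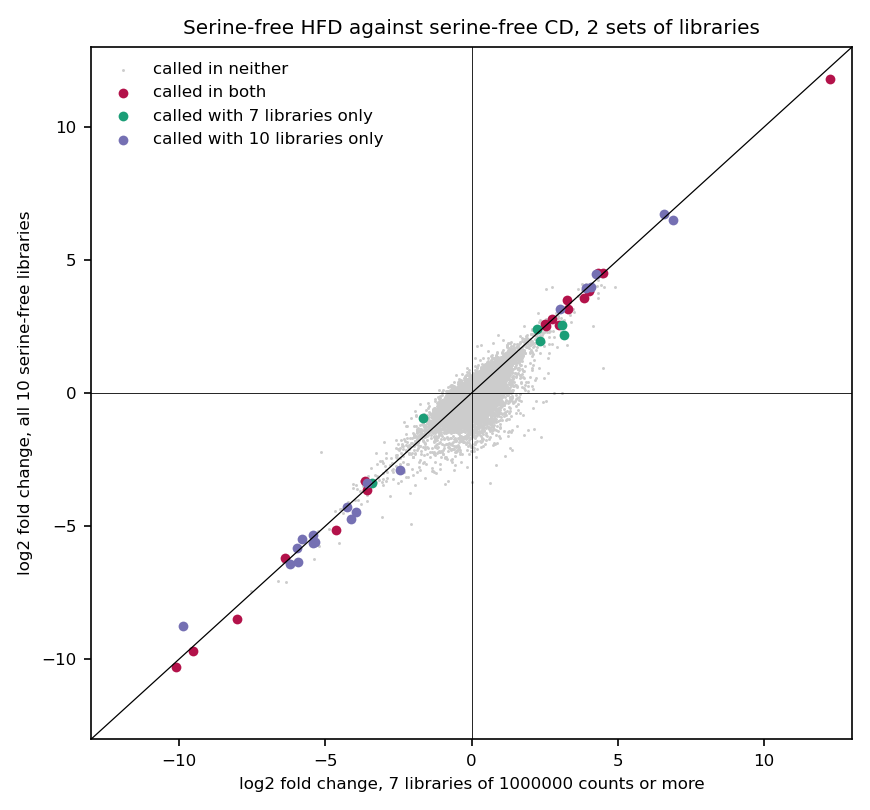
Log2 fold change of serine-free HFD against serine-free CD with the 7 deep libraries (horizontal) and with all 10 serine-free libraries (vertical), 1 point per gene; colours mark the genes called in both fits (19, of which 1 is not drawn), with 7 libraries only or with 10 only. Called genes lie near the diagonal, and the genes in the lower right and upper left parts are those whose sign turned.

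The 3 shallow libraries, which the fit of 7 did not use, gave a separate look at the 26 genes. SF-HFD 5 stood above both SF-CD 1 and SF-CD 5 for 15 of the 16 genes called higher, where 40.0% of all tested genes did so. It stood below both for 8 of the 10 called lower, where 25.99% of all tested genes did. Counts were small: Myl9 had 45 counts in SF-HFD 5 against 1 and 0, Ndufb4c 53 against 0 and 0, and Mptx1 0 against 8 and 30. The exceptions were Tnc, with 3 counts against 1 and 2, Gm9046, with 3 against 0 and 0, and Hmgn2, with 230 against 23 and 105. With 1 library of SF-HFD there is no test, and the deepest of the 3 was SF-HFD 5.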

How the data were processed

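Mouse colon RNA was sequenced from poly(A)-selected directional libraries, per the labels' protocols. The deposited table holds estimated counts per gene for each library, which the authors made with Salmon 1.3.0 and the mm10 build, per the submitters' processing notes; the sources used here give no further settings. The estimated counts were rounded to whole numbers. Rows without a gene symbol (at most 0.0257% of a library) stayed in under their identifiers. Groups and replicate numbers come from the sample titles.

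Genes were kept by edgeR's filterByExpr, scaled by TMM and tested with edgeR 4.0.16 (glmQLFit, robust, and glmQLFTest, in R 4.3.3) for 4 SF-HFD against 3 SF-CD libraries, with Benjamini-Hochberg adjustment over all genes tested; the procedure was tested on simulated data. CPM are TMM-normalised, and do not correct for gene length. Single values were compared by exact permutation tests, for which 4 against 3 libraries allow no p below 0.0571. Depths of 3648783 to 12841275 counts put 3 counts at 0.234 to 0.822 CPM; intervals cover counting error only. Alternatives were other scalings and filters, DESeq2 1.42.0, limma 3.58.1 voom, all 10 serine-free libraries, a replicate block, removal of ribosomal RNA and mitochondrial rows, and leaving out each library.

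The members and gene lists were chosen with earlier results of these data known. The rule for named genes took up to 15 called genes with the largest rises and falls, up to 3 per list (called, or else the 2 most abundant), up to 10 called in 1 of the 7- and 10-library fits, and 40 set genes; not every gene it takes is named. Apoe, list members beyond the rule and the genes that set single libraries apart were chosen after their values were seen. Gene positions and shared 31-base words come from GENCODE M21, which held 94.7% of the table's identifiers. The values of 1 called gene are not reported here.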

Additional observations from a re-analysis of the deposited data

Results flagged for a closer look

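In a group of 4 libraries, 1 value was taken as standing apart where its gap to the nearest other library took a larger part of the group's range than Dixon's critical value at 95% allows. This was applied to the SF-HFD levels of 104 genes, and 17 were picked out; chance alone picks about 1 in 20 groups, and the genes are not independent.

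SF-HFD 2 stood apart in 5 of them: it was high in Lgr5 (15.7 CPM), Mki67 (264 CPM), Cpt1a, the entry step of fatty acid oxidation (28.2 CPM), and Spink4 (41.3 CPM), and low in Ly6a (1293 CPM, against at least 2149 in the others). SF-HFD 3 was high in Igf1 (8.77 CPM), Vim (86.6 CPM), Tgfbi (3.23 CPM) and, by 1 count, Hdc (0.0923 CPM). SF-HFD 4 was high in Ido1 (271 CPM). SF-HFD 1 was high in Mat2a (463 CPM), Mfap5 (9.06 CPM) and Ceacam10, a secreted adhesion family member (1.28 CPM).

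The other flags are single counts beside 3 libraries at 0: Zg16 and Muc2 in SF-HFD 1 (0.0915 CPM each), and the pancreatic lipase relative Pnliprp2 and Fcer1g in SF-HFD 4 (0.0760 CPM each).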

How the results depend on the processing

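All 26 called genes kept their sign in every alternative in which they were tested (25 with all 10 libraries), and Myl9 and Ndufb4c stayed past the threshold in all 16. Bgn, Lox and Zg16 lost it only with the replicate block. Muc2, Spink1, Col1a2, Tnc, Rcn3, Ccdc80, Mfap5, Hmgn2 and Gm8186 lost it with the block and whichever library was left out. Counts of calls did not hold. Against 26 (16 higher, 10 lower), no filter on low counts called 84 (44 and 40), DESeq2 468 (233 and 235), limma-voom with quality weights 122 (51 and 71), the stricter filter 36, and all 10 libraries 38, of which 20 were lower; each of these but the last held all 26. Leaving out 1 library gave 6 to 19 calls (5 to 16 higher, 1 to 9 lower). The cause of these shifts was not tested.

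Deviations of same-numbered libraries from their group means correlated at -0.1, 0.143 and 0.051. Differently numbered libraries were not compared in this way, so these values cannot show whether replicate numbers pair the samples. With the replicate number as a block, 7 genes were called (5 higher, 2 lower), 4 of them among the 26.

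Signs turned for uncalled genes. Ly6a and Vim (log2 fold changes of 0.0040 and 0.0029) turned under other scalings: Ly6a to -0.0113, -0.0092 and -0.0113 and Vim to -0.0100, -0.0127 and -0.0091 with RLE, upper quartile and DESeq2. Under limma-voom, Mki67 was at -0.27, Reg4 at -0.78, Car1 at -0.13 and Trbc1 at 0.15. With all 10 libraries, Ascl2 was at 0.21, Mki67 -0.33, Psat1 0.041, Vim -0.50, Malat1 -2.04, Nfkbia -1.02, Rrm2 0.24, Pcna 0.044, Ccnd1 -0.64, Itga6 -0.98 and Car2, a carbonic anhydrase, 0.16. With the block, Ascl2 was at 0.20, Krt20 -1.37, Sptlc1 -0.12, Car1 -0.33 and Trbc1 0.31. Leaving out 1 library moved Ascl2 between -0.88 and 0.45, Ly6a between -0.27 and 0.43, Vim between -1.37 and 1.47, Car2 between -0.58 and 0.41, Sptlc1 between -0.071 and 0.19, Cpt1a between -0.68 and 0.13, Car1 between -0.66 and 1.66, Krt20 between -0.44 and 1.45, Mki67 between -0.61 and 0.58, Tgfb2 between -1.83 and 0.22, and Trbc1 between -1.11 and 1.11.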
